A study of Rattus norvegicus with 3 samples.

Results

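Abra, Srf, Myocd, Mrtfa and Mrtfb form the actin-to-nucleus signalling route of muscle cells, and 3 of these 5 genes are among the 15296 with a matched probe on any array of the series. Members were chosen by name, and Abra was picked because its ratio was low on both injured arrays, so its ratios below are a description. A probe was assigned to a member when its RefSeq accession belonged to that gene. The members with a probe were Abra, Srf and Myocd, whereas Mrtfa and Mrtfb had no matched probe and no value is given for them.

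The RNA came from common carotid arteries, taken whole, of male Wistar rats. The groups were an uninjured artery, an artery 7 days after balloon injury and an artery 21 days after balloon injury, with 1 one-colour Cy3 array each; no age is given in the labels. Per the series' design text, repeat experiments used different rats, of which 1 array per group was analysed here. In balloon injury a catheter with an inflated balloon is drawn through the vessel, which removes endothelium and distends the media. With 1 array per group there were no replicates, no test was possible and no p-value is given: every difference is between 2 arrays.

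Serum response factor, encoded by Srf, binds a short AT-rich element called the CArG box in the promoters of growth and muscle genes. Myocardin (Myocd) and its relatives MRTF-A and MRTF-B (Mrtfa, Mrtfb) bind SRF and switch on contractile genes, and the MRTFs are held in the cytoplasm by monomeric actin until actin is drawn into filaments. Abra, also called STARS, is an actin-binding protein of striated and smooth muscle that promotes actin assembly and so frees the MRTFs. Growth factors act on SRF through another set of partners, the ternary complex factors Elk1, Elk3 and Elk4, which compete with myocardin.

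SRF binding sites are shown because Srf and its targets are the genes the values below concern. Promoter windows from 250 bases before to 50 bases after the gene start were taken from RefSeq on GRCr8 and held 3 members (Srf, Mrtfa and Mrtfb). A CArG box was counted when all 10 bases of its consensus matched, and it reads the same on both strands. It was present in 1.64% of 27457 promoters. The Srf window held 2 boxes, starting 81 and 61 bases before the gene start, and the windows of Mrtfa and Mrtfb held 0. The 250 bases before the Srf start (chr9:21923826-21924075, plus strand, GRCr8) are given 5′ to 3′ with the boxes in capitals.
Srf: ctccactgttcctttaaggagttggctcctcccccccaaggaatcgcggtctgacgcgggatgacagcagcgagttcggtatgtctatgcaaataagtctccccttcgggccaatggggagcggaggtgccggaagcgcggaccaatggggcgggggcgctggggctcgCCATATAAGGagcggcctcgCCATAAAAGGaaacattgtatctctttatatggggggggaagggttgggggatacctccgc

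Of the target lists described below, 4 of 13 promoters of immediate-early genes (30.8%) held a box, as did 5 of 23 of cytoskeletal targets (21.7%), 0 of 14 of contractile targets and 1 of 32 of actin regulators (3.13%). Allowing 1 base of the AT core to differ, the shares were 61.5%, 43.5%, 7.14% and 15.6%, against 9.27% of all promoters. A match is a description of the letters in this window, and a window without one leaves other sites of the gene unexamined. The stretches below belong to list genes that had both a box and a measured value, with the box in capitals.
Fhl1 (chrX:139638379-139638418, plus strand): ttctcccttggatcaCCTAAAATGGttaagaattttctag
Fhl2 (chr9:52954611-52954650, minus strand): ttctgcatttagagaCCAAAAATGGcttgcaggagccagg
Actg1 (chr10:106121017-106121056, minus strand): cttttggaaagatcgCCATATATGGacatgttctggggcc
Egr2 (chr20:21054500-21054539, minus strand): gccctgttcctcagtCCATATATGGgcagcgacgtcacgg
Dusp5 (chr1:262543677-262543726, plus strand): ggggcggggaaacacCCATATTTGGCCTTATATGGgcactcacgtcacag
Zfp36 (chr1:92799116-92799155, minus strand): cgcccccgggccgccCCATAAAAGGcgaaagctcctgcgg
Rnd3 (chr3:55998616-55998655, minus strand): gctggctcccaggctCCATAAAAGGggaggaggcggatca

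The uninjured and day 21 arrays were of 1 design and 1 scan, whereas day 7 was run on a newer design, in a separate scan read by a later software release. Time after injury and array design therefore cannot be told apart for day 7. The share of probes well above background, by the scanner software's flag, lay between 59.8% and 76.5%, and no spot was saturated. Signals are background-subtracted intensities, which are not comparable between arrays before scaling: the 75th percentile over all probes was 49.6 on the uninjured array, 209.7 at day 7 and 135.1 at day 21. For a ratio, the log2 signal was reduced by the 75th percentile of its array, taken for day 7 over the 10583 probes measured on all 3 arrays and for day 21 against uninjured over all probes of their common design. Values after ± are technical errors of the ratio. They come from the SD of replicate spots within arrays, divided by the square root of the probe's number of spots. In whole tissue, fewer cells of a type and less RNA per cell cannot be told apart.

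Abra was the gene of the group with the lowest ratios. Its single probe (NM_175844) was present on all 3 arrays and gave an intensity of 874.9 in the uninjured artery, 30.0 at day 7 and 47.9 at day 21. On the scaled log2 axis of the shared probes these signals were 2.78, -2.94 and -3.0. Both injured arrays were far below the uninjured one and close to each other, and the probe was well above background on all of them.

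At day 7 Abra was 53.0-fold lower than in the uninjured artery (log2 ratio -5.73 ± 0.20), and at day 21 it was 49.9-fold lower (-5.64 ± 0.18). These were the lowest ratios among the 5249 genes well above background on both arrays at day 7 and among the 9420 at day 21, which is how Abra came to be picked. Both ratios share the single uninjured array. Between the injured arrays the difference was -0.06 ± 0.24 (day 21 minus day 7), within the spread of spots, and its sign depended on the scaling, running between -0.45 and 1.5 over 8 other settings.

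The day 7 design carried the Abra probe in 10 spots, which shows the spread of the reading within that 1 array. Local backgrounds at these spots ran from 22 to 41, of like size to the signals left after subtraction. The spot intensities ran from 18.0 to 53.9 with a median of 31.9, and all 10 were well above background. Taken one at a time against the uninjured array, they gave log2 ratios between -6.46 and -4.88, so even the brightest spot left Abra far below its uninjured level. Of these spots, 5 lay above and the rest below the scaled day 21 signal. The SD over the spots was 0.57 on the log2 scale, against a median of 0.62 for 107 replicated probes of similar signal on that array. On the uninjured and day 21 arrays Abra had 1 spot, with a software error of 11.1% of its signal at day 21.

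**Figure D1:**
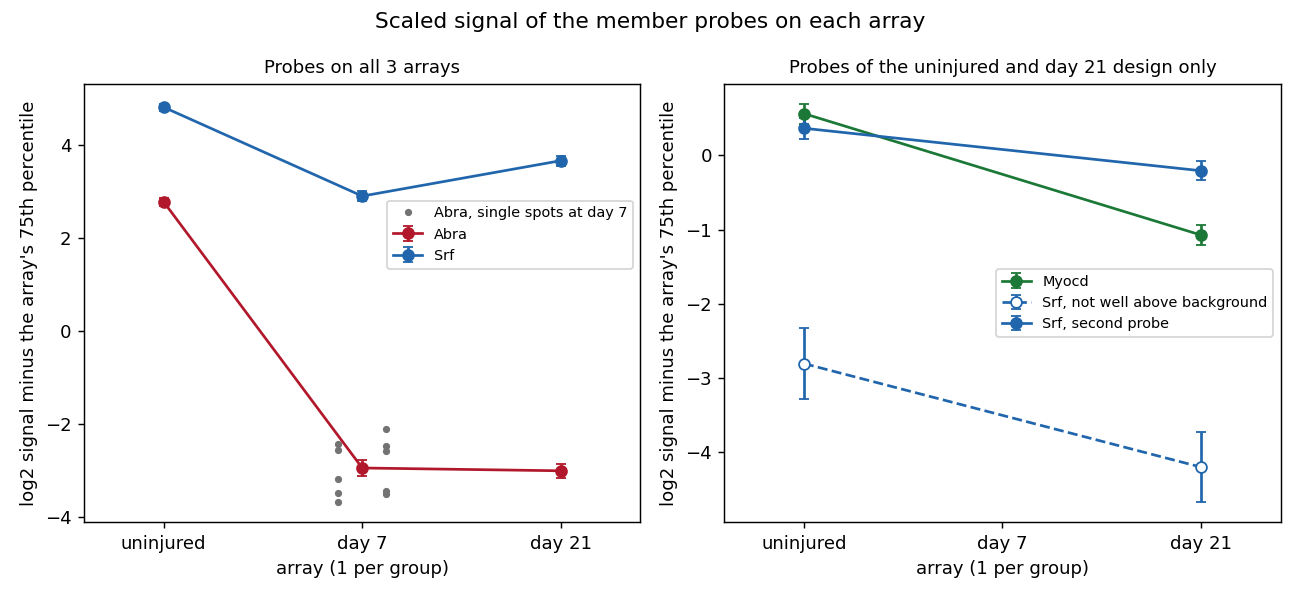
Scaled log2 signal of each member probe on the uninjured, day 7 and day 21 arrays (1 array per group). Bars are an SD of replicate spots divided by the square root of the probe's number of spots. The SD is the probe's own for Abra at day 7, and elsewhere that of replicated probes of like signal. Grey points are the 10 Abra spots at day 7, and open circles a probe not well above background. Abra lies at 2.78 in the uninjured artery and at -2.94 and -3.0 at day 7 and day 21, while the Srf probe in the left panel lies at 4.82, 2.91 and 3.67; levels of different probes are not comparable.

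Srf itself was lower in both injured arteries, by much less than Abra. Its brightest probe (NM_001109302, on all 3 arrays) gave 3588 in the uninjured artery, 1729 at day 7 and 4884 at day 21. The scaled log2 signals were 4.82, 2.91 and 3.67, so the uninjured array was highest after scaling although the unscaled day 21 signal exceeded it. At day 7 Srf was 3.77-fold lower than uninjured (-1.91 ± 0.13), and 4.34% of the 5249 genes had a lower ratio. That ratio was -1.29 with normexp and -3.13 with own-design scaling. At day 21 it was 2.01-fold lower (-1.0 ± 0.13), with 13.6% of 9420 genes lower, and the ratio lay between -1.15 and -0.44 over the other settings. The day 21 signal was above that of day 7 by 0.76 ± 0.15, a difference of 0.43 with normexp, 1.23 with median scaling and 2.13 with own-design scaling.

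The uninjured and day 21 arrays held further Srf probes. The second of them gave 117.1 at day 21 and 63.9 in the uninjured artery, a log2 ratio of -0.58 ± 0.19, which is the same sign as the brightest probe and a smaller size. The remaining probe, at 7.33 and 7.09, was not well above background on either array and gives no ratio.

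The authors' deposited table of log2 values disagrees with the scanner signals for Srf. In the authors' deposited table the row named for the brightest probe stands at 7.58, 10.81 and 6.79 for the uninjured, day 7 and day 21 arrays, which would place Srf 3.23 higher at day 7 than uninjured. Its day 7 value lay 0.01 from the median of rows of like scanner signal. Its uninjured and day 21 values lay -5.15 and -5.35 from the median of rows with the signal of that probe, but within 0.001 and 0.003 of the median of rows with the signal of the second Srf probe. Over all rows with a probe on the array, between 2.10% and 3.19% lay more than 2 log2 units from rows of like signal. The Abra row lay 0.04 and -0.02 from them on the uninjured and day 21 arrays, and the authors' deposited table gives Abra -7.25 at day 7 and -5.75 at day 21 against uninjured.

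Myocd, the coactivator of smooth and cardiac muscle genes, was lower at day 21. Its probe on the older design (NM_182667) gave an intensity of 64.2 at day 21 and 73.3 in the uninjured artery, or scaled log2 signals of -1.07 and 0.57. This amounts to 3.12-fold lower at day 21 (-1.64 ± 0.19), with 3.72% of 9420 genes lower and a range from -1.64 to -0.93 over the other settings. The day 7 array carried a different Myocd probe, which read 21.1 and was well above background, and no ratio can be formed between different probes. The authors' deposited table nonetheless lists that day 7 probe for all arrays, at 7.79, 3.18 and 5.84. Its uninjured and day 21 values lay 0.02 and 0.004 from rows with the signal of the other Myocd probe, so the table's difference between day 7 and uninjured crosses probes and is not used.

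Differences between ratios taken on the same arrays do not change with the scaling constant. The Abra ratio lay -3.81 log2 units from that of Srf at day 7 and -4.64 from it at day 21. Over the scanner settings and the deposited table this difference lay between -10.48 and -2.71 at day 7, the lowest coming from the deposited Srf row, and between -4.96 and -3.59 at day 21. At day 21 Myocd was -0.64 from Srf.

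The genes whose pair of ratios was nearest to that of Abra were found by Euclidean distance over the day 7 and day 21 ratios of 5168 other named genes well above background on all 3 arrays. They were Spink8, a Kazal-type serine peptidase inhibitor (distance 1.89), Ppp1cb, a catalytic subunit of the phosphatase that acts on myosin (2.48), B3gat2, a glucuronyltransferase (2.56), Asb12, an ankyrin-repeat and SOCS-box protein (2.86), and P2rx1, an ATP-gated cation channel of smooth muscle (2.90). Ppp1cb read 1585 in the uninjured artery, 303.0 at day 7 and 95.2 at day 21, and P2rx1 read 504.0, 85.9 and 93.0. Spink8 read 1606, 200.7 and 109.6. At day 7 all of these had ratios nearer to 0 than Abra, which was picked for its low ratios, with B3gat2 next at -4.49. The likeness rests on 3 arrays with a shared uninjured one.

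**Figure D2:**
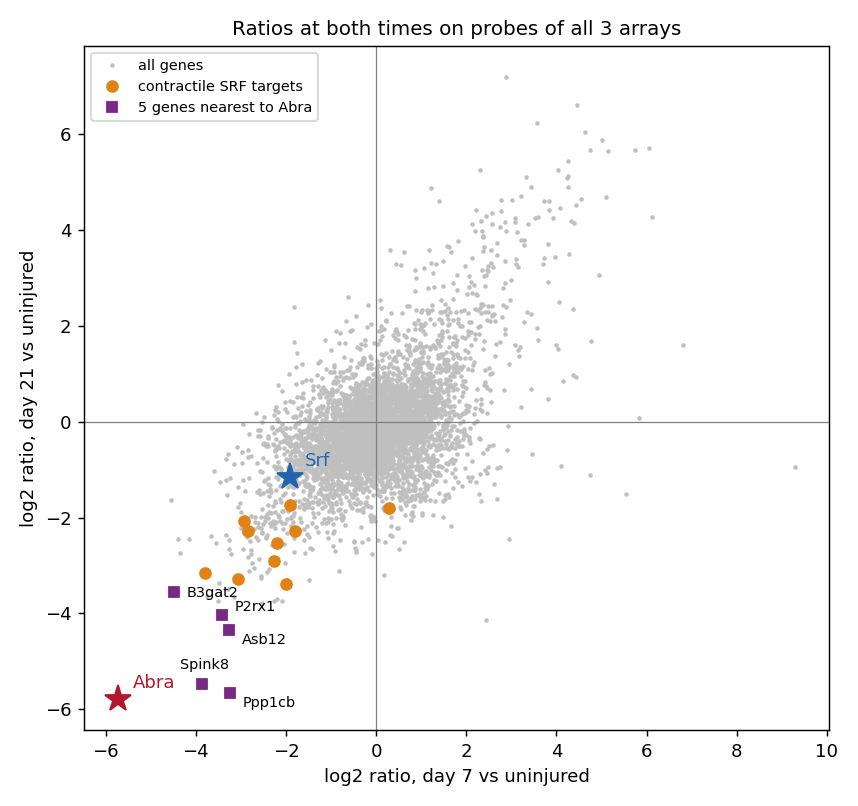
Log2 ratio to uninjured at day 7 (horizontal) and day 21 (vertical) for each gene well above background on all 3 arrays, on probes of all 3 arrays; both axes share the uninjured array. Abra lies apart at the lower left, the 5 nearest genes are squares, and 9 of 10 contractile SRF targets (orange) lie below 0 on the day 7 axis, the other, Lmod1, lying at 0.30.

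The following lists of SRF partners and targets were chosen with earlier results of these data known. For reading them, 16.3% of 5249 genes were at least 2-fold lower at day 7 than uninjured and 16.1% at least 2-fold higher, 13.7% of 9420 were lower at day 21 than uninjured and 9.11% higher, and 20.0% of 5635 were lower at day 21 than at day 7 and 10.7% higher. The medians over these genes were -0.01, -0.20 and -0.19. The balance depends on scaling. Among genes past 2-fold either way at day 7, 49.8% were higher as reported, 40.9% with quantile normalization, 39.9% with normexp background correction, 26.3% with median scaling, 21.3% in the authors' deposited table and 5.45% when every array's own probes set its scale. At day 21 the shares were 39.9% as reported, 55.6% with quantile normalization, 74.9% with normexp, 77.1% with median scaling, 60.3% in the authors' deposited table and 29.8% without a filter on dim probes. Counts for the lists other than the contractile targets were made on the reported scaling alone. The median of all genes shifted with the scaling, to -1.23 at day 7 with own-design scaling and to 0.28 at day 21 with median scaling.

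Contractile smooth muscle genes, the classic targets of SRF with myocardin, were mostly lower. Past 2-fold, 9 of 10 with a value were lower at day 7 and 0 higher (median -2.23), and at day 21 16 of 18 were lower and 0 higher (median -2.14). Over the same 18 genes the day 21 count was 11 with normexp and 12 with median scaling. Tropomyosin 2 (Tpm2) read 3225 at day 7 and 24810 in the uninjured artery (-3.80 ± 0.13). Calponin (Cnn1) read 252.8 at day 7 and 1174 in the uninjured artery, with ratios of -3.08 ± 0.11 at day 7 and -3.13 ± 0.15 at day 21. Smooth muscle gamma actin (Actg2), not measured at day 7, read 1424 at day 21 and 10943 in the uninjured artery (-4.39 ± 0.13).

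The days can be read side by side for several of these genes. Tagln, an actin-binding protein of smooth muscle, was at -2.20 ± 0.13 and -2.39 ± 0.13, and the myosin light chain Myl9 at -2.26 ± 0.13 and -2.76 ± 0.13, for day 7 and day 21. Desmin (Des), the muscle intermediate filament, was at -1.99 ± 0.12 and -3.23 ± 0.15. Leiomodin 1 (Lmod1), an actin nucleator of smooth muscle, was at 0.30 ± 0.29 at day 7 and -1.66 ± 0.28 at day 21, from intensities of 67.1 at day 7, 25.9 at day 21 and 30.1 in the uninjured artery, near the dim end of the arrays. The 2 genes under 2-fold at day 21 were Cald1 (-0.99 ± 0.15) and Aoc3 (-0.97 ± 0.16). Between the injured arrays 2 of 10 were lower at day 21, Lmod1 at -2.11 ± 0.33 and Des at -1.39 ± 0.15, and 0 higher. That comparison turned with the scaling, with 1 lower and 3 higher under median scaling and 0 lower and 6 higher with own-design scaling, whereas against uninjured 0 were higher at either time under any setting.

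Set against the median of these targets on the same arrays, Abra was at -3.50 at day 7 and -3.50 at day 21. Srf was at 0.32 at day 7 and 1.14 at day 21 against that median, and Myocd at 0.50 at day 21. Abra was picked for its low ratios, so its place below the typical contractile target follows from that choice. Srf lay above the contractile median at both times, and Myocd at day 21. Over the other settings the Abra difference lay between -4.73 and -1.93 at day 7 and between -3.79 and -2.49 at day 21.

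Cytoskeletal and adhesion genes, targets of SRF with the MRTFs, were found on both sides. At day 7 6 of 13 were at least 2-fold lower and 4 higher (median -0.34), and at day 21 8 of 22 were lower and 1 higher (median -0.32). Vinculin (Vcl), which links integrins to actin, read 319.6 at day 7 and 1314 in the uninjured artery (-2.90 ± 0.09), and stood at -1.31 ± 0.13 at day 21. The matricellular gene Ccn2 was at -2.43 ± 0.04 and -1.30 ± 0.03, and Fhl1, one of the genes with a box shown above, at -2.24 ± 0.09 and -1.74 ± 0.13. Filamin A (Flna) was at -1.42 ± 0.13 at day 7 and -1.98 ± 0.13 at day 21.

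In the same list Cotl1, a coactosin-like actin-binding protein also abundant in leukocytes, read 6305 at day 7, 7267 at day 21 and 222.2 in the uninjured artery (3.97 ± 0.15 and 3.58 ± 0.15). Nonmuscle myosin Myh9 (1.53 ± 0.18), Fhl2 (1.24 ± 0.18) and the fibronectin receptor subunit Itga5 (1.08 ± 0.15) were also past 2-fold at day 7. On the day 21 array these genes stood at 0.31 ± 0.21, 0.36 ± 0.20 and -0.51 ± 0.17. Beta actin (Actb) was at -1.27 ± 0.05 at day 7. At day 21 its brightest probe, another one, was at 0.07 ± 0.13, and the day 7 probe was at -0.12 on the shared-probe scaling. Gamma actin (Actg1), whose promoter holds a box, was at -0.27 ± 0.13 at day 21. Between the injured arrays 3 of 13 were lower at day 21 and 2 higher.

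Immediate-early genes, which SRF controls with the ternary complex factors, had no common direction. At day 7 3 of 9 were at least 2-fold lower and 2 higher (median -0.41), and at day 21 1 of 14 was lower and 3 higher (median 0.43). The MAP kinase phosphatase Dusp5 read 266.3 at day 7, 449.1 at day 21 and 35.1 in the uninjured artery (2.06 ± 0.16 and 2.23 ± 0.20). Egr2, a zinc finger factor that also marks myelinating Schwann cells, read 377.5, 365.4 and 59.0 in the same order (1.82 ± 0.14 and 1.18 ± 0.19). The mRNA-decay factor Zfp36 was at least 2.35-fold higher at day 21, not being well above background in the uninjured artery.

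The orphan nuclear receptor Nr4a3 read 113.2 at day 7, 726.7 at day 21 and 1315 in the uninjured artery (-4.40 ± 0.14 and -2.31 ± 0.14). Its relative Nr4a1 was at -2.00 ± 0.09 and -0.15 ± 0.13. The survival factor Mcl1 was at -1.54 ± 0.20 at day 7. At day 21 a different, brighter Mcl1 probe was at -0.24 ± 0.14, and the day 7 probe was at -0.54 on the shared-probe scaling. Fos, the archetype of the class, was at 0.77 ± 0.14 at day 21 and was not compared at day 7. Genes whose promoters hold a CArG box thus lay on both sides. Dusp5 and Egr2 were past 2-fold higher at both times, whereas Fhl1 and the actin regulator Rnd3 were past 2-fold lower.

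Among 31 transcription factors and cofactors that bind or modulate SRF and myocardin, 5 of 12 measured were at least 2-fold lower at day 7 and 2 higher, and 4 of 19 were lower at day 21 and 3 higher (medians -0.64 and -0.40). Klf4, a repressor of smooth muscle genes that opposes myocardin in mouse cells, read 464.9 at day 7, 3908 at day 21 and 2016 in the uninjured artery (-2.98 ± 0.12 and -0.49 ± 0.13). Csrp2, a LIM protein of smooth muscle that bridges SRF and GATA factors, was at -1.57 ± 0.08 and -2.60 ± 0.13. Hopx, a homeodomain-only protein that antagonises SRF in mouse heart, was higher at both times (1.40 ± 0.14 and 1.82 ± 0.15).

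The ternary complex factors differed among themselves at day 21. Elk4 was at 1.98 ± 0.21, and the brightest Elk3 probe was at least 21.3-fold higher. Elk1 read 13.9 in the uninjured artery and 10.5 at day 21, where it was not well above background. These dim readings put it 3.63-fold lower after scaling, which is not a bound. A second Elk3 probe, the one on all 3 arrays, stood at -0.51 ± 0.71 at day 7 and at -0.70 at day 21 on the shared-probe scaling, so the Elk3 probes disagree. Klf5, a growth-associated factor of injured smooth muscle, read 46.6 at day 7 and was not well above background on the other arrays. This puts it at least 3.06-fold above the uninjured array. Its dim day 21 reading of 10.3 was 7.51-fold below day 7 after scaling. Gata4 read 11.9 at day 7 and 14.3 in the uninjured artery, 2.18-fold lower after scaling. Tcf21 read 11.3 at day 21 and 15.6 in the uninjured artery, 3.75-fold lower after scaling. Both injured readings were not well above background, so these folds compare dim signals and are not bounds.

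The list of actin regulators also holds myosin phosphatase genes, a filament-capping gene and a binding partner of Abra in mouse. Not all of its genes lie between Abra and the MRTFs. Of those measured, 5 of 17 were at least 2-fold lower and 2 higher at day 7. At day 21 6 of 26 were lower and 2 higher (medians -0.57 and -0.30). Ppp1cb was at -3.25 ± 0.11 and -5.51 ± 0.15. The small GTPase gene Rnd3 read 157.3 at day 7 and 593.8 in the uninjured artery (-2.78 ± 0.12), and was at -1.81 ± 0.15 at day 21. Ppp1r14a, the smooth muscle inhibitor of myosin phosphatase, was at -2.45 ± 0.13 and -2.28 ± 0.13, and the actin-severing gene Cfl2 of muscle at -1.95 ± 0.23 and -1.54 ± 0.15, the Cfl2 values coming from different probes.

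Several genes of the same list were within 2-fold of uninjured. Rhoa, a small GTPase that promotes actin assembly, was at -0.70 ± 0.13 at day 7 and -0.07 ± 0.13 at day 21, Rhob at -0.57 ± 0.13 and -0.56 ± 0.13, and profilin 1 (Pfn1) at 0.20 ± 0.13 and 0.34 ± 0.13. Outside that range, Capg, a filament-capping protein abundant in macrophages, read 2329 at day 7, 5436 at day 21 and 131.0 in the uninjured artery, or 9.80-fold and 15.2-fold higher. Ablim3, a binding partner of Abra in mouse, was at 0.16 ± 0.26 at day 21.

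**Figure D3:**
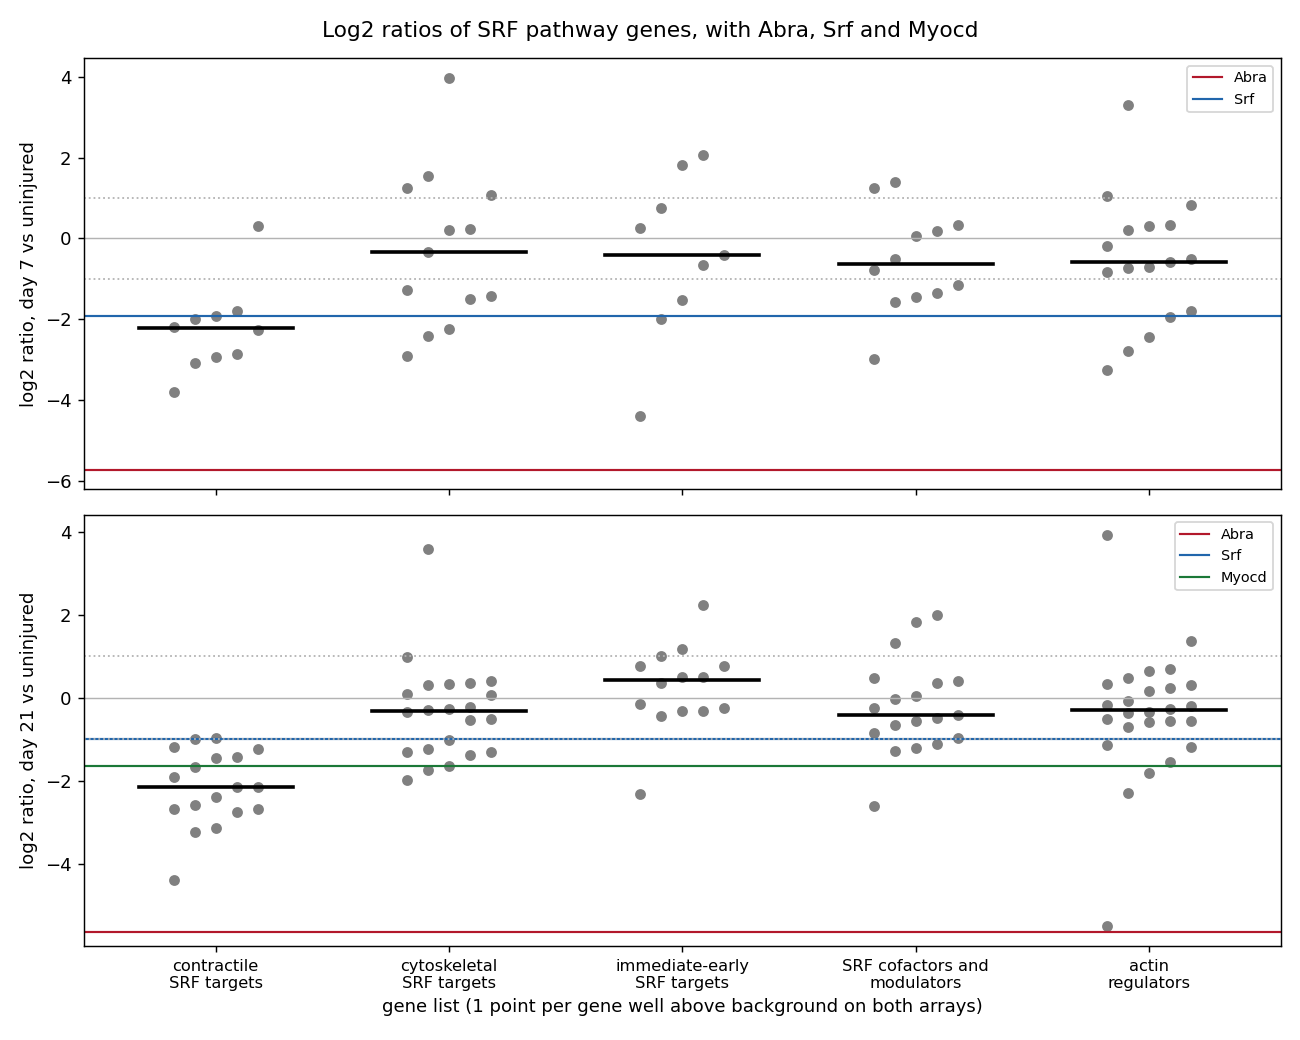
Log2 ratio of each list gene well above background on both arrays (grey points; black bars are list medians; dotted lines mark 2-fold), at day 7 above and day 21 below, against the uninjured array. The coloured lines for Abra, which was picked for its low ratios, lie below the points of all 5 lists. Srf lies near the contractile median of -2.23 at day 7 and above the contractile median of -2.14 at day 21.

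Because Abra is also expressed in striated muscle, markers of skeletal and cardiac muscle are given beside it. At day 7 8 of 24 skeletal muscle markers had a shared probe; of 7 well above background on both arrays, 1 was at least 2-fold lower (Acta1, -2.45 ± 0.39) and 3 higher (Actn3, Myl11 and Myh3), and the summed scaled signal was 6.54 at day 7 against 5.88 in the uninjured artery, in multiples of the 75th percentile. At day 21 6 of 15 were lower and 0 higher, and 3 more were well above background only in the uninjured artery. The sum over 21 genes was 23.9 at day 21 against 47.8 in the uninjured artery. Creatine kinase (Ckm) was at -4.01 ± 0.15, and Myod1 was not well above background on any array.

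Cardiac muscle markers summed to 1.15 at day 7 against 1.66 in the uninjured artery over 10 genes, and to 3.67 at day 21 against 13.5 over 14 genes. Of the 5 and 8 measured on both arrays, 0 and 2 were at least 2-fold lower and 0 higher, with medians of 0.29 and -0.64. Cardiac actin (Actc1), the brightest of these markers in the uninjured artery, read 374.5 there and 101.1 at day 21 (-3.34 ± 0.16). It was not compared at day 7. Atrial natriuretic peptide (Nppa), Mybpc3 and Smpx were not well above background on any array. Myh6 was at least 15.9-fold lower at day 7 and at least 24.1-fold lower at day 21. Of the 10 genes compared at day 7 it was the brightest in the uninjured artery. It read 90.8 there and 8.41 at day 7, and the sums include it, whereas the day 7 median does not.

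Smooth muscle markers outside the target list summed to 10.8 at day 7 against 48.6 in the uninjured artery over 6 genes. At day 21 they summed to 85.2 against 359 in the uninjured artery over 12 genes. Gene sets and scaling differ between the days, so the uninjured sums are not comparable with each other. Past 2-fold, 3 of 5 were lower and 2 higher at day 7, and 7 of 11 lower and 0 higher at day 21. Macrophage markers were on the other side: past 2-fold, 10 of 11 were higher at day 7 and 15 of 15 at day 21. Their sum was 171 at day 7 against 12.3 in the uninjured artery over 12 genes, and 2187 at day 21 against 52.8 over 17 genes. Endothelial markers were higher in 5 of 5 at day 7 and 6 of 7 at day 21, with 0 lower. Schwann cell markers were higher in 4 of 5 and lower in 0 at day 7, and higher in 1 of 9 and lower in 3 at day 21. Fibroblast markers were lower in 1 of 4 and higher in 0 at day 7, and lower in 3 of 8 and higher in 2 (Lum and Pdgfra) at day 21. Adipocyte markers were higher in 2 of 2 at day 7 and 2 of 6 at day 21, with 0 lower. The part of these cell types in the ratios of Abra, Srf and Myocd was not tested.

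**Figure D4:**
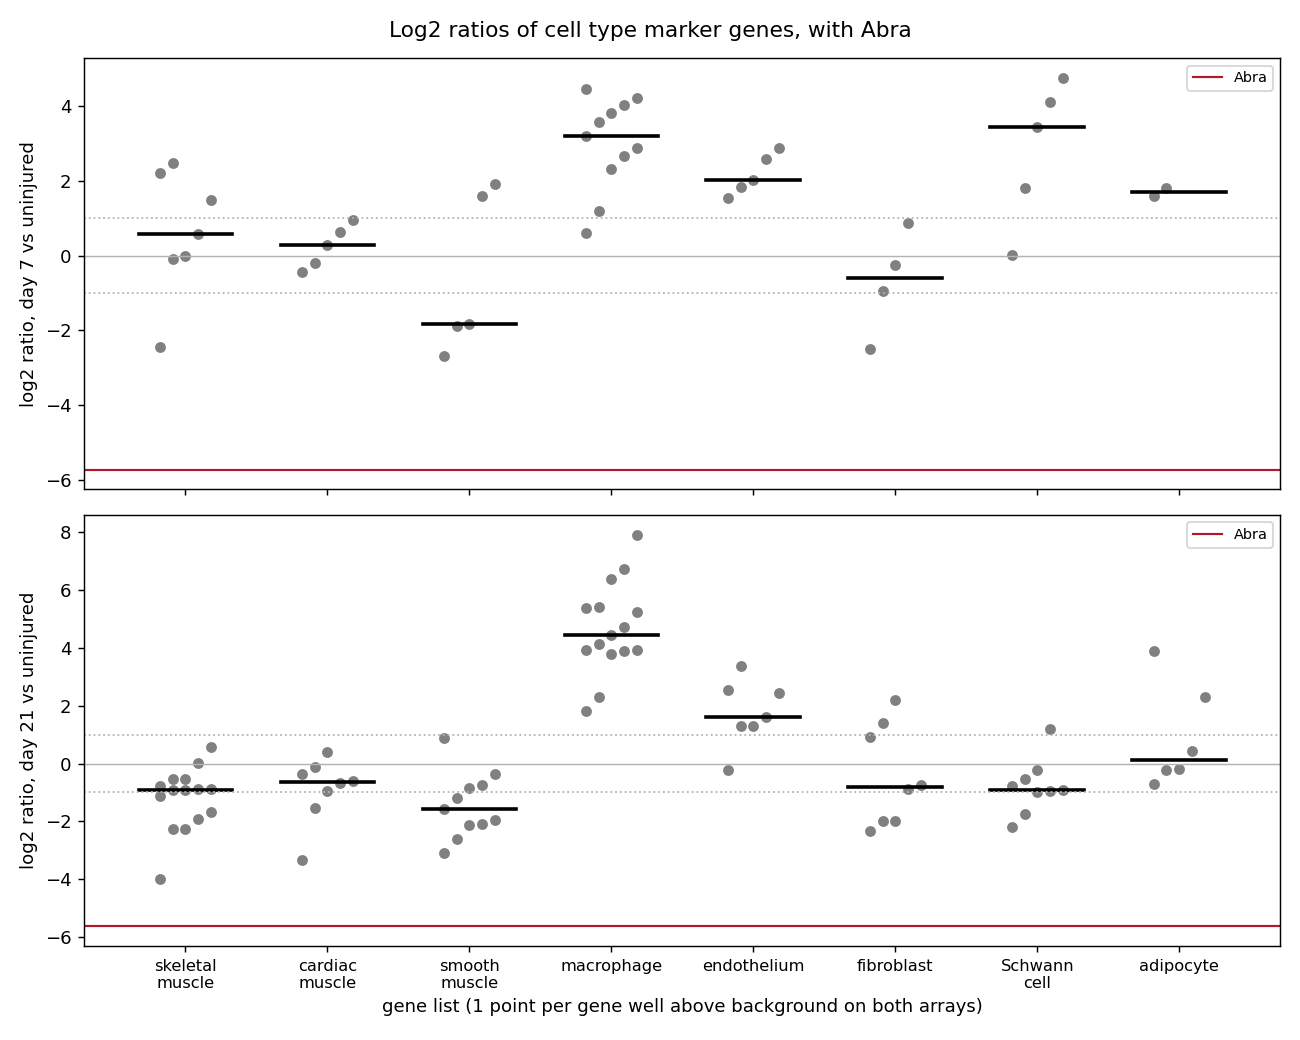
Log2 ratio of each cell type marker well above background on both arrays (grey points; black bars are list medians; dotted lines mark 2-fold), at day 7 above and day 21 below, against the uninjured array, with Abra as a line. Macrophage medians lie at 3.21 and 4.44, and skeletal muscle medians at 0.58 and -0.90. All points lie above Abra at -5.73 and -5.64, which was picked for its low ratios.

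Abra remained low under all 8 other processing settings, between -7.25 and -4.0 at day 7 and between -5.79 and -4.03 at day 21. Averaging over probes and keeping dim probes could not change Abra or Myocd, each with a single compared probe well above background. Keeping flagged spots left Abra at -5.73 at day 7 and -5.64 at day 21. The value nearest to 0 at each time came from a background correction that adds 50 units to each signal, which narrows the ratio of a probe reading 30.0 and 47.9 on the injured arrays. Myocd kept its sign under the 6 settings that gave it a value, and Srf kept its sign under all settings at day 21 and under all but the deposited table at day 7.

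**Figure D5:**
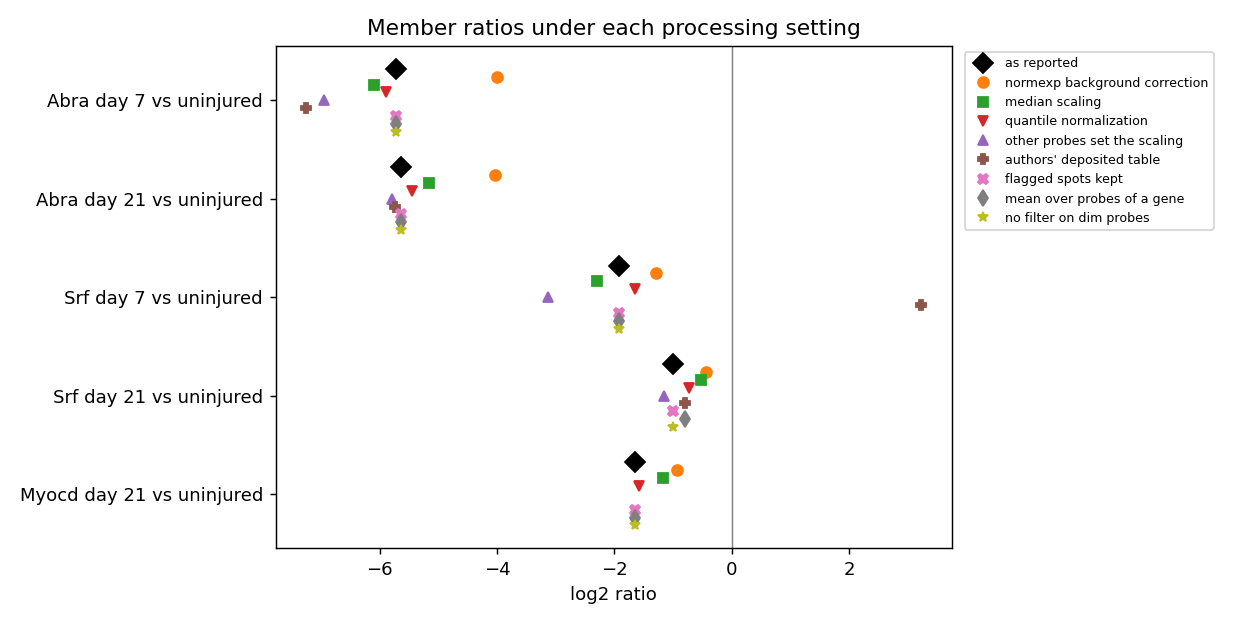
Log2 ratio to uninjured of Abra, Srf and Myocd as reported (black diamonds) and under each other processing setting (coloured marks). Abra stays at or below -4.0 throughout, Srf at day 21 lies between -1.15 and -0.44, and the single positive mark, 3.23, is the deposited Srf row at day 7.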

How the data were processed

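RNA of whole arteries was measured on Agilent rat arrays in 1 colour (Cy3), per the labels. Each deposited spot intensity was background-subtracted and detrended within its array by the Agilent Feature Extraction software, per the file headers. The release was 11.0.1.1 at day 7 and 10.7.3.1 on the other arrays. The authors' deposited table holds log2 values for 9260 rows with medians of 7.64, 7.62 and 7.64 (uninjured, day 7, day 21); it runs on the log2 scale and in the direction of the scanner signals, and its normalization and centring are not given in the sources used here.

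Control spots and outlier spots (0.242%, 1.46% and 0.274%) were left out, spots of a probe were averaged as log2, and the 75th percentile was subtracted. The plan restricted day 7 comparisons to probes on all 3 arrays. Accessions were matched without versions to RefSeq (GRCr8), used for names: 8040 of the 10583 shared probes and 17505 of 40989 probes of the older design matched. A gene is its brightest probe, and is called higher or lower from 2-fold on. For the technical error, a probe with at least 5 spots used its own SD, others the SD of replicate spots of like signal. Each SD was divided by the square root of the probe's number of spots. Where a gene was well above background on 1 array of a pair, the dim side was set to the lowest well-above-background signal of that array. The fold is then a bound, written "at least". Where the gene's own dim signal was higher than that, the fold is the ratio of both readings and not a bound.

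Members and lists were chosen with earlier results of these data known. Named genes are the members, up to 4 lowest and 4 highest per pathway list and comparison, genes with a bound, the brightest markers and the 5 genes nearest to Abra. Genes with a CArG box, the other genes described for their role (such as Rhoa, Pfn1, Actb, Fos, Tagln and Ablim3) and some markers were added after their values were seen. The planned normexp alternative (offset 50) used median in place of mean spot signals. The ratio calculation was tested on simulated data. Python 3.11.15, numpy 2.4.6, pandas 2.3.3 and limma 3.58.1 were used.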

Additional observations from a re-analysis of the deposited data

How the results depend on the processing

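With 1 array per group the number of arrays limits all values. For Abra, the log2 ratio at day 7 against uninjured was -4.0 with normexp, -6.10 with median scaling, -6.95 when every array's own probes set its scale and -7.25 in the authors' deposited table. At day 21 against uninjured it was -4.03 with normexp, -5.16 with median scaling and -5.44 with quantile normalization. At day 21 against day 7 it was -0.45, 0.40, 0.78, 1.31 and 1.5 with normexp, median scaling, quantile normalization, own-design scaling and the deposited table. For Srf at day 7 the deposited table gave 3.23, where the row's uninjured value matches the signal of another Srf probe, and for day 21 against day 7 it gave -4.02, against 0.76 as reported. Of contractile targets at least 2-fold lower at day 21, 16 became 10 on shared probes and 8 in the deposited table, where 10 and 8 of the list were measured, and 11 with normexp and 12 with median scaling of the same 18. At day 7 the count was 9 of 10 under every scanner setting. It was 8 of 8 in the deposited table, where 40.5% of all genes were at least 2-fold lower. The other settings moved each Abra ratio by less than its technical error. No paired analysis was possible because each group has 1 array.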
